A study of Mus musculus with 22 samples.

Results

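The genes described here carry fatty acids from circulating lipoproteins into fat cells and store them as triglyceride: Lpl, Gpihbp1, Cd36, Slc27a1, Fabp4, Gpam, Agpat2, Lpin1, Dgat1 and Dgat2. They were chosen by name, as the 10 rows with these symbols among the 23420 genes of the count table, and all 10 passed the filter on low counts that left 14458 genes for testing. RNA was sequenced from the inguinal (mammary) fat pads of 11 wildtype female C57Bl/6 mice, 5 kept on chow (lean) and 6 kept for 16 weeks on a high fat diet with 60% of its calories from fat (obese). At an age of about 20 weeks every mouse was given E0771 breast cancer cells, a line from a C57Bl/6 tumor, with Matrigel in the left pad (tumor-associated) and Matrigel without cells in the right pad (control). Both pads were taken 2 weeks later, which gave 5 lean control, 5 lean tumor-associated, 6 obese control and 6 obese tumor-associated libraries. The pads are whole tissue beside a graft of 1 cell line, and the control pad lies in the same tumor-bearing animal. Diet cannot be told apart from the weight gained on it. The authors reported larger tumors in obese than in lean mice, so diet cannot be told apart from tumor size either.

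In fat, lipoprotein lipase is made by adipocytes and is carried to the capillary lumen by GPIHBP1, a protein of the endothelial cell, where it frees fatty acids from the triglyceride of chylomicrons and very low density lipoproteins. CD36 and the transport protein encoded by Slc27a1 help fatty acids across the cell membrane, and FABP4 binds them inside the adipocyte. Esterification then runs in order through a mitochondrial glycerol phosphate acyltransferase (Gpam), the acyltransferase that makes phosphatidic acid (Agpat2), the phosphatidic acid phosphatase lipin (Lpin1) and the diacylglycerol acyltransferases (Dgat1, Dgat2). White fat is the main site of this storage, and loss of AGPAT2 or of lipin leaves an animal with little body fat.

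On the GRCm38 genome (mm10), Lpl lies at chr8:68880491-68907448 (+ strand), Gpihbp1 at chr15:75596628-75599481 (+), Cd36 at chr5:17781690-17888801 (-), Slc27a1 at chr8:71568882-71587302 (+) and Fabp4 at chr3:10204088-10208576 (-). The esterification genes are Gpam at chr19:55067268-55127238 (-), Agpat2 at chr2:26593057-26604417 (-), Lpin1 at chr12:16535669-16610966 (-), Dgat1 at chr15:76502015-76511953 (-) and Dgat2 at chr7:99153658-99182719 (-). For short they are called the acyl transfer genes below, although Lpin1 encodes a phosphatase and not an acyltransferase. Exons of Agpat2 overlap those of Egfl7, an endothelial gene on the other strand. The strand setting of the counting is not given in the sources used here, so the overlap may have affected the counts of both genes. Values of Egfl7 are given beside those of Agpat2 for that reason.

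The libraries held 5759775 to 8598108 counts on genes (median 6953881), and the least abundant member, Gpihbp1, had 125 to 923 counts per library. Levels are CPM (counts-per-million after TMM scaling). The sum of 10 adipocyte markers fixed for this purpose was 9165 to 12574 CPM in lean control, 5888 to 11172 beside a tumor in lean mice, 10525 to 19018 in the control pads of obese mice and 1268 to 8468 in their tumor-associated pads, so the labelled tissue carried its defining markers in every library, at the lowest level in the tumor-associated pads of obese mice 4 and 0. Skeletal muscle markers summed to 2764 CPM in the control pad of obese mouse 1 and 282 CPM in the tumor-associated pad of obese mouse 8. Lymphocyte markers summed to at most 791 CPM, in the control pad of obese mouse 1, with 709.6 CPM in that of obese mouse 3 and at most 188 CPM elsewhere. Since these libraries stand apart, values without both pads of obese mice 0 and 4, or of 1 and 3, are given where they move a result.

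**Figure D1:**
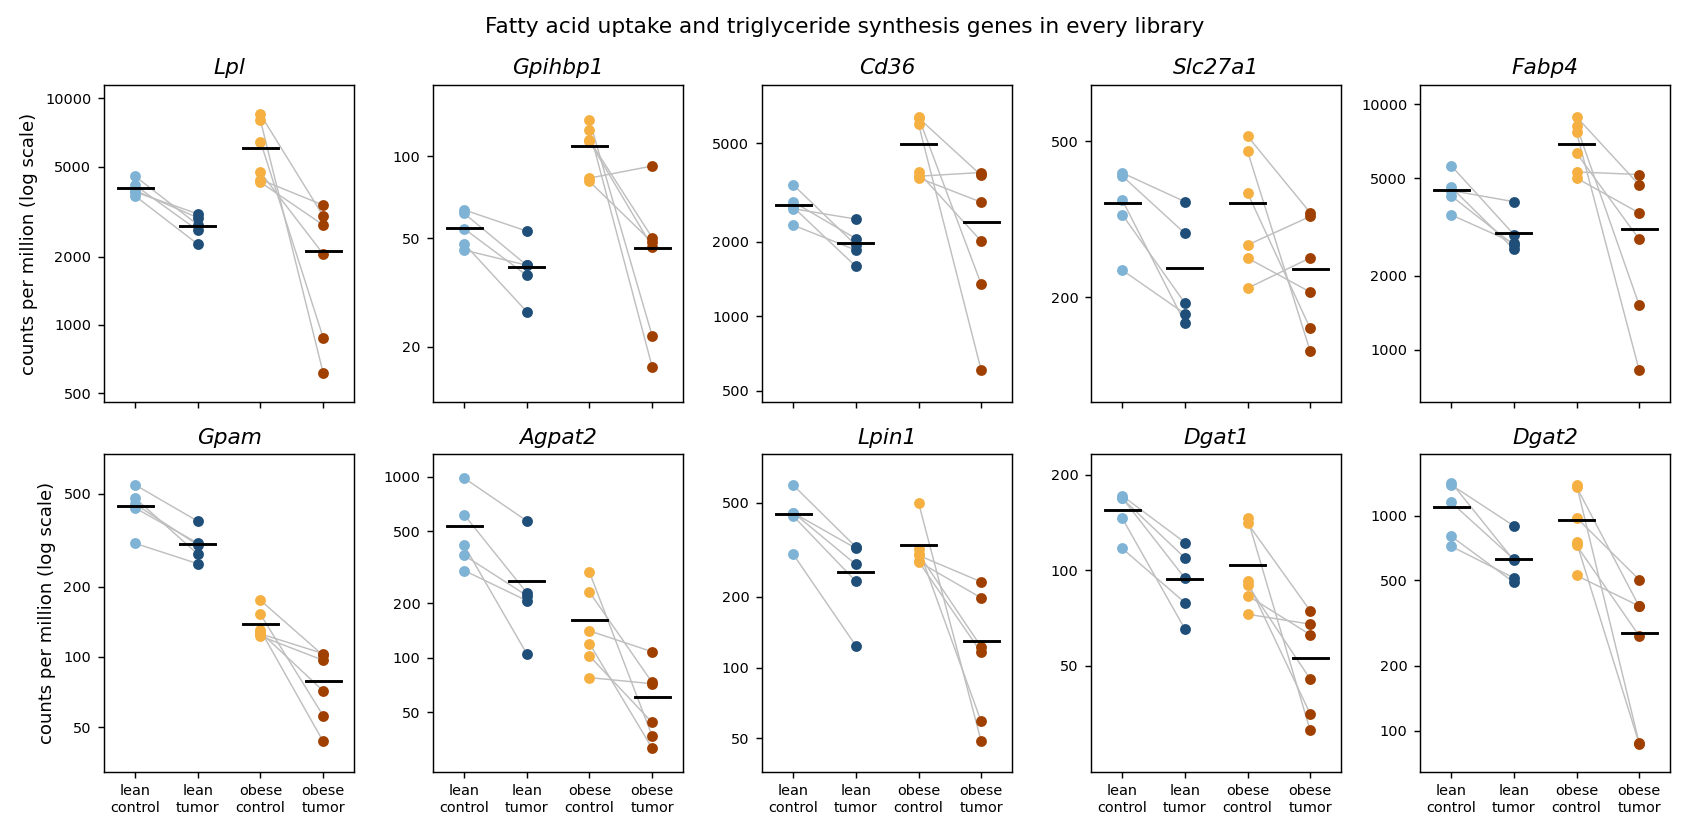
CPM (TMM, log scale) of the 10 genes in each of the 22 libraries, in 4 groups; points are libraries, grey lines join the 2 pads of a mouse and black bars are group means. In every lean mouse the tumor-associated pad lies below the control pad in all 10 genes, the obese mice spread widely, and Gpam is lower in every obese than in every lean library.

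Per kilobase of exon, Fabp4 was the most abundant member in all 4 groups, at 5002 ± 837 CPM per kb (SD, n = 5) in lean control pads, far above Lpl at 979 ± 77.2 and Cd36 at 799 ± 109. The ranges of Lpl (901 to 1100.5) and Cd36 (661 to 962) overlapped, as did those of Dgat2 (485 ± 144) and Agpat2 (361 ± 185), the next in order. Slc27a1 (122 ± 25.8), Dgat1 (81.8 ± 12.4), Lpin1 (72.5 ± 16.7) and Gpam (69.9 ± 13.8) followed with overlapping ranges, and Gpihbp1 was lowest at 26.02 ± 3.88 CPM per kb. In obese control pads the last places were exchanged: Gpihbp1 had 51.8 ± 10.54 CPM per kb (SD, n = 6; 38.6 to 64.6) and Gpam 21.9 ± 3.23 (19.4 to 27.5), with no overlap. In obese tumor-associated pads Gpam was again lowest, at 12.4 ± 4.03 CPM per kb, and Cd36 (679 ± 368) stood beside Lpl (516 ± 280).

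The first comparison asked how the pad beside a tumor differed from the control pad of the same lean mice. All 10 members were lower in the tumor-associated pad in 5 of 5 lean mice, whereas 13.5% of all genes tested were lower in every lean mouse, but none of the 10 passed the test in the fit to all 22 libraries. The fitted log2 changes lay between -1.01 and -0.47 with a median of -0.57, beside 0.01 over all genes tested. By edgeR's quasi-likelihood test with Benjamini-Hochberg adjustment 4.18% of all genes were called here (0.913% lower; 473 of 605 calls were higher, 382 of 581 with upper-quartile scaling and 623 of 918 in DESeq2). By unadjusted p under 0.05 4 of the 10 passed (Gpam, Agpat2, Lpin1 and Dgat1) beside 16.1% of all genes, and DESeq2 called 1 of the 10, Dgat1.

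Lpl, the lipase itself, had 4132, 3919.5, 4528, 3708 and 3861 CPM in the control pads of lean mice 0, 2, 3, 6 and 9, and 2614, 2972, 2766, 2271 and 3091 CPM in their tumor-associated pads. The groups did not overlap, as in 3.03% of all genes tested that were lower, and the fitted log2 change was -0.55 ± 0.34 (SE; edgeR adjusted p = 0.473). Gpihbp1, its carrier, went from 45.3, 47.8, 61.7, 54.2 and 63.6 CPM to 39.8, 26.9, 39.8, 36.6 and 53.1 CPM, with overlap between the groups and a log2 change of -0.47 ± 0.31 (adjusted p = 0.531). The spread used for these tests is that of all 22 libraries, obese tumor-associated pads included.

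The genes of entry and binding had log2 changes of -0.51 ± 0.33 for Cd36, -0.55 ± 0.27 for Slc27a1 and -0.59 ± 0.34 for Fabp4 (SE; edgeR adjusted p = 0.532, 0.340 and 0.430). Fabp4 had 3538 to 5615 CPM in control and 2566 to 4005 CPM in tumor-associated pads. In each of these 3 genes the groups overlapped, and lean mouse 9 had the highest tumor-associated level.

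Among the acyl transfer genes the log2 changes were -0.55 ± 0.20 for Gpam, -1.01 ± 0.44 for Agpat2, -0.82 ± 0.34 for Lpin1, -0.71 ± 0.24 for Dgat1 and -0.80 ± 0.40 for Dgat2 (edgeR adjusted p = 0.107 to 0.332). Agpat2 varied most among lean mice, with 368, 418, 616, 983 and 304 CPM in control and 221, 105, 229, 570.2 and 207 CPM in tumor-associated pads of mice 0, 2, 3, 6 and 9. Mouse 6 was highest in both pads and its tumor-associated pad alone reached into the control range, while Egfl7 had a log2 change of -0.06 ± 0.24. When the lean libraries were fitted alone, 6 of the 10 were called lower (Lpl, Cd36, Fabp4, Gpam, Dgat1 and Dgat2). Their edgeR adjusted p ran from 0.0126 for Lpl to 0.0424 for Dgat2, and 1437 of all 13750 genes tested were called (846 higher). Without obese mice 0 and 4, 3 were called lower (Gpam, Lpin1 and Dgat1), beside 1102 of all 14521 genes called (696 higher).

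**Figure D2:**
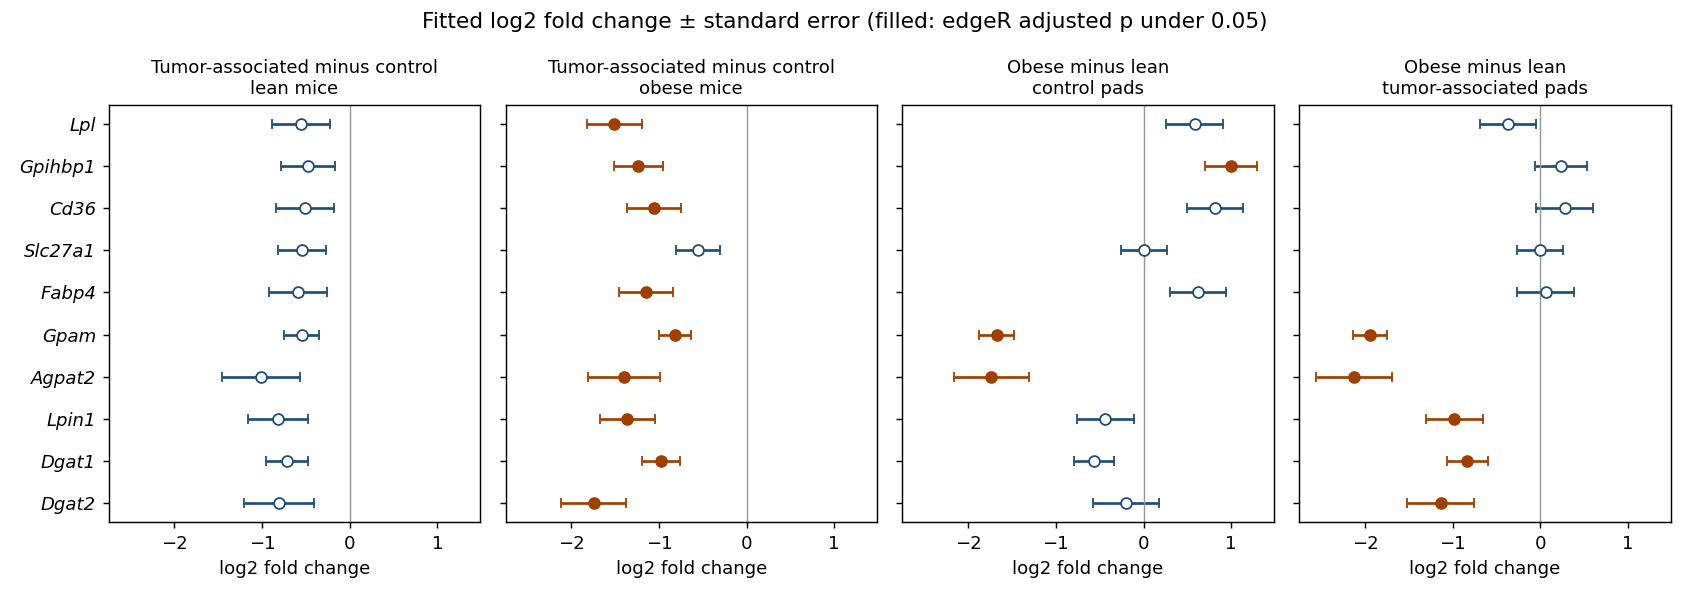
Log2 fold change of each gene with its standard error in 4 comparisons, from 1 edgeR fit to 22 libraries; filled points have an adjusted p under 0.05. No gene is filled in lean mice, 9 are filled and lower in obese mice, and between diets the 5 acyl transfer genes at the bottom lie to the left while the uptake genes at the top lie near or to the right of 0 in control pads.

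The same comparison in obese mice gave 9 of 10 members called lower in the tumor-associated pad, all but Slc27a1, where 54.5% of all genes tested were called and 27.7% were called lower. The median log2 change over the 10 was -1.19, beside -0.02 over all genes tested. In 7 of the 10 genes the level was lower in 6 of 6 obese mice, beside 19.7% of all genes tested. The range among mice was wide: obese mouse 1 had the least or nearly the least change in every gene, and obese mice 4 and 0 the most.

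Lpl had 6441, 4379.9, 4717, 4263, 7988 and 8489 CPM in the control pads of obese mice 0, 1, 2, 3, 4 and 8, and 880.2, 3381, 2058, 2763, 616 and 3029.6 CPM in their tumor-associated pads. The groups did not overlap, and the log2 change was -1.51 ± 0.31 (edgeR adjusted p = 0.000591). Gpihbp1 had 135, 83.2, 114, 80.8, 124 and 113 CPM in control pads and 21.97, 92.1, 50.3, 48.4, 16.9 and 46.6 CPM in the others. It was lower in 5 of 6 mice, with mouse 1 as the exception and the only source of overlap, and changed by -1.24 ± 0.28 (adjusted p = 0.00125).

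Cd36 went from 6387, 3685, 3817, 3628, 5995 and 6343 CPM in control pads to 1349, 3814, 2015, 2894, 606 and 3718 CPM. Mouse 1 was again the exception, the groups overlapped, and the log2 change of -1.05 ± 0.31 (edgeR adjusted p = 0.00718) became -0.50 ± 0.22 (adjusted p = 0.0860) without mice 0 and 4. Fabp4 fell by 1.15 ± 0.31 on the log2 scale (adjusted p = 0.00409), from 4999.5 to 8873 CPM in control pads to 824 to 5169 CPM. Slc27a1 had 369, 272, 252, 211, 471 and 515 CPM in control and 167, 321, 206, 252, 146 and 329 CPM in tumor-associated pads. It was lower in 4 of 6 mice and higher in mice 1 and 3, and its log2 change of -0.56 ± 0.25 missed the threshold (adjusted p = 0.0654), which it passed without those mice (-0.94 ± 0.29, adjusted p = 0.0104).

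All 5 acyl transfer genes were lower in 6 of 6 obese mice and were called. Dgat2, the more abundant of the pair per kb, had 750.4, 527, 727, 978, 1391 and 1359 CPM in control pads and 86.9, 379.6, 276, 504, 87.4 and 378 CPM in tumor-associated pads. These groups did not overlap, with mice 0 and 4 far below the others, and Dgat2 had the largest log2 change of the 10, -1.74 ± 0.37 (edgeR adjusted p = 0.000757). Dgat1 changed by -0.98 ± 0.22 (adjusted p = 0.00117), from 72.7 to 146 CPM down to 31.3 to 74.6 CPM, with overlap.

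Lpin1 had 319.6, 299, 282, 282, 502 and 305 CPM in control and 59.0, 231, 116, 198, 48.7 and 122 CPM in tumor-associated pads of the obese mice. The groups did not overlap, and the log2 change was -1.36 ± 0.32 (edgeR adjusted p = 0.00144). Gpam changed by -0.82 ± 0.19 (adjusted p = 0.00126), also without overlap, from 123 to 175 CPM in control pads to 43.4 to 103 CPM. Groups did not overlap in 4 of the 10 genes, Lpl, Gpam, Lpin1 and Dgat2, as in 9.66% of all genes tested that were lower.

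Agpat2 changed by -1.40 ± 0.41 (edgeR adjusted p = 0.00767), with overlap, from 77.9 to 297 CPM in control to 31.8 to 108 CPM in tumor-associated pads. This call was lost without mice 0 and 4 (-0.90 ± 0.48, adjusted p = 0.157). Egfl7 changed by -0.69 ± 0.22 in the same comparison.

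Adipocyte markers moved with these genes. The tumor-associated minus control difference of their mean log2 CPM was -0.51 ± 0.24 in lean mice (SD, n = 5; negative in 5 of 5) and -1.72 ± 1.33 in obese mice (SD, n = 6; negative in 6 of 6), from -0.30 in obese mouse 1 to -3.56 in mouse 4. In whole tissue, fewer adipocytes, less RNA per adipocyte and more RNA from other cells, grafted cells included, cannot be told apart. The tumor-associated pad of obese mouse 4 also had the lowest endothelial (344 CPM), macrophage (1616) and fibroblast (5047) sums of its group. Its luminal epithelial and lymphocyte sums were not the lowest. The share of RNA from grafted cells was not tested. Adipoq, the adipocyte hormone adiponectin, had log2 changes of -0.43 ± 0.36 in lean mice (SE; edgeR adjusted p = 0.697) and -1.52 ± 0.33 in obese mice (adjusted p = 0.000957). Of 10 adipocyte markers, none was called in lean and 9 were called lower in obese mice.

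Other marker lists moved as well. Of 12 macrophage markers 9 were called higher in the tumor-associated pad in each diet. Their summed level was 712 to 1348 CPM in lean control, 1468 to 3428 beside a tumor in lean mice, and 1141 to 1469 against 1616 to 4415 CPM in obese mice. Of 10 endothelial markers, none was called in lean and 9 were called lower in obese mice, with sums of 1103 to 1609 CPM in obese control and 344 to 1346 in obese tumor-associated pads. No marker of these 3 lists was at 0 in a whole group, and their part in the levels of the 10 genes was not tested.

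Set against the adipocyte markers of the same mouse, as a difference of log2 changes, Lpl kept pace with them: its change minus theirs was -0.05 ± 0.08 in lean mice (SD, n = 5) and 0.01 ± 0.15 in obese mice (SD, n = 6). Dgat2 changed by slightly more than the markers in obese mice, by -0.24 ± 0.20, negative in 6 of 6 mice. Against Adipoq alone this value was -0.16 ± 0.23, negative in 5 of 6. In lean mice Agpat2 (-0.59 ± 0.60) and Lpin1 (-0.35 ± 0.30) were negative in 5 of 5 mice against the list and in 4 of 5 against Adipoq alone.

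The remaining uptake genes had smaller changes than the markers in most or all obese mice. The difference was 1.18 ± 0.60 for Slc27a1, 0.47 ± 0.25 for Cd36 and 0.35 ± 0.21 for Fabp4, positive in 6 of 6 mice for each, and 0.30 ± 0.31 for Gpihbp1, positive in 5 of 6. Gpihbp1 is however an endothelial gene. Its fitted change of -1.24 compares with a median of -0.78 over the 10 endothelial markers (-1.31 to -0.30), so it fell by more than that median. Among the acyl transfer genes the difference from the adipocyte markers was 0.85 ± 0.80 for Gpam and 0.72 ± 0.65 for Dgat1, positive in 6 of 6 mice, and 0.34 ± 0.49 for Agpat2 and 0.18 ± 0.26 for Lpin1, positive in 5 of 6. Mice 0 and 4, where the fall in marker level was greatest, had the largest differences in these 4 genes, and without them the means were 0.36 for Gpam, 0.31 for Dgat1, 0.08 for Agpat2 and 0.05 for Lpin1. With Lep, Retn and Lipe taken off the marker list, Fabp4 and Gpam were positive in 5 of 6 mice. The differences from the adipocyte markers are descriptions of pairs of pads and carry no test.

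**Figure D3:**
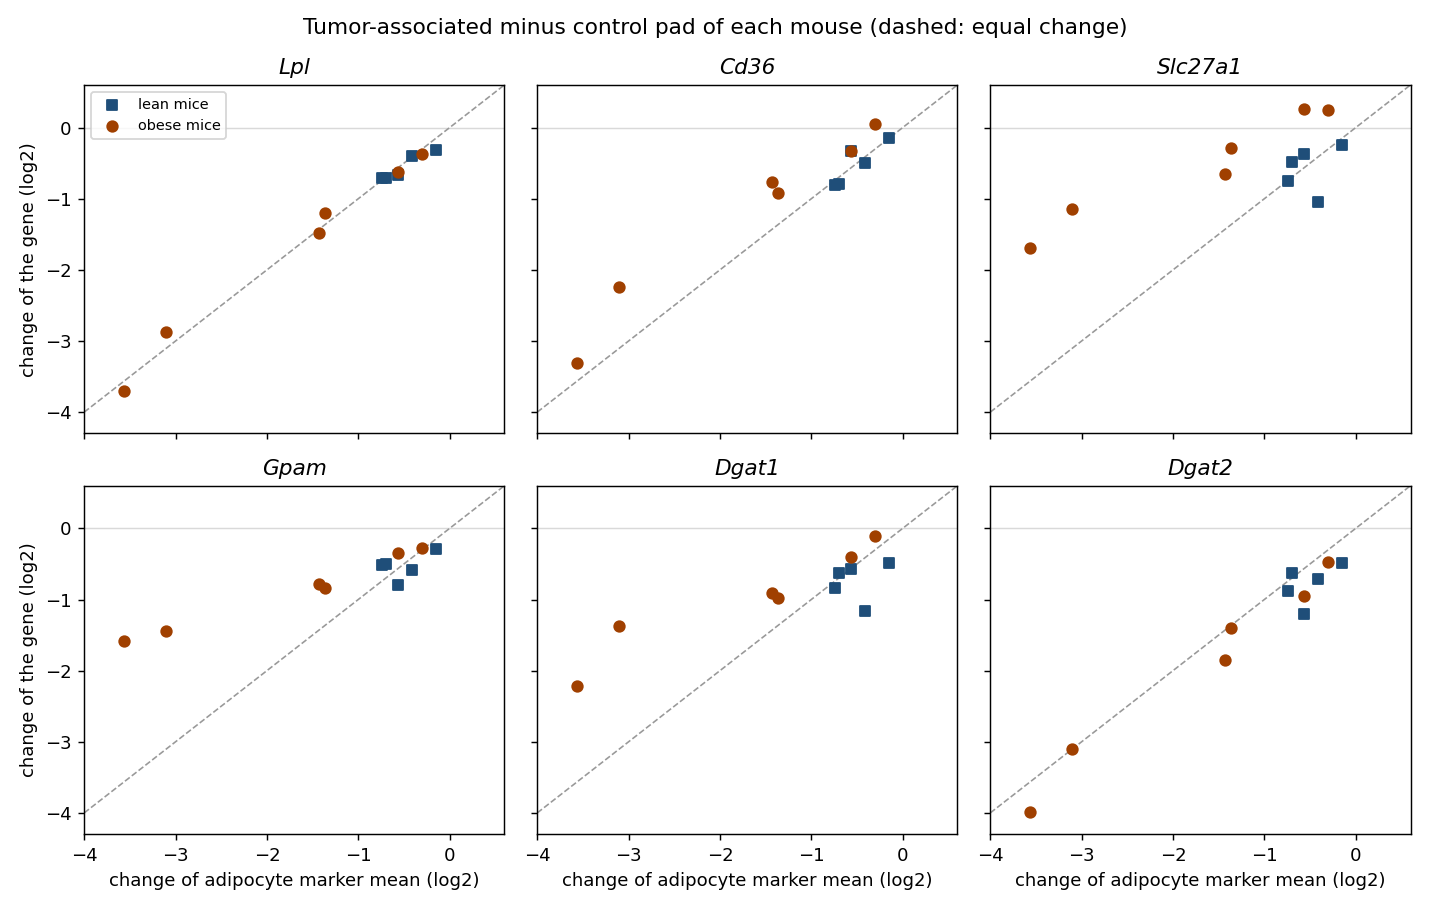
Log2 change from control to tumor-associated pad of 6 genes (y axis) against that of the mean of 10 adipocyte markers (x axis), 1 point per mouse, 5 lean (squares) and 6 obese (circles); the dashed line marks equal change. Lpl and Dgat2 lie along the line down to the change of -3.56 in obese mouse 4, while Slc27a1, Gpam and Dgat1 lie above it in all 6 obese mice, Gpam by only 0.02 in mouse 1.

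The third comparison was between diets in control pads. In obese mice Gpihbp1 was called higher and Gpam and Agpat2 were called lower, 3 of 10 members beside 17.1% of all genes tested (9.54% higher and 7.53% lower; 1380 of 2468 calls were higher, and 1068 of 2514 with upper-quartile scaling). The median log2 difference over the 10 was -0.10, beside 0.04 over all genes tested, and the members went both ways: the 5 uptake genes had differences from 0.00 to 0.99 and the 5 acyl transfer genes from -1.74 to -0.20. Obese mice are compared here with other, lean mice, and the control groups are those used above.

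Gpam, which starts the pathway, had 479, 452, 546, 435 and 306 CPM in lean control pads and 152, 126, 128, 123, 130.1 and 175 CPM in obese control pads. The lowest lean library lay well above the highest obese one, and the log2 difference was -1.68 ± 0.19 (SE; edgeR adjusted p = 1.52e-05), the smallest adjusted p of any member in this comparison. Agpat2, the next enzyme, had 304 to 983 CPM in lean and 120.0, 77.9, 103, 141, 297 and 231 CPM in obese control pads, a difference of -1.74 ± 0.43 (adjusted p = 0.00828). The groups did not overlap in either gene, as in 5.59% of all genes tested that were lower, though for Agpat2 the gap was from 297 to 304 CPM. Egfl7 on the other strand differed by 0.36 ± 0.23. Agpat9 and Agpat6, older symbols of Gpat3 and Gpat4, encode other enzymes of the step of Gpam. They had 70.9 ± 8.64 and 142 ± 29.9 CPM (SD, n = 5) in lean control pads. In obese control pads they had 73.1 ± 26.6 and 130 ± 10.8 CPM (SD, n = 6).

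The upstream sequences of these genes are shown because Gpam and Agpat2 were the members lower in obese control pads, with Cd36 as a member that lay the other way. RefSeq promoter windows on GRCm38.p6 were matched for 5 of the 10 genes (Cd36, Slc27a1, Gpam, Agpat2 and Lpin1). The 250 bases before the start are printed 5′ to 3′ on the strand of the gene, with capitals for matches on either strand to the TATA box (TATAAA), the CCAAT box, the GC box (GGGCGG), the sterol regulatory element core TCACNCCAC or the direct repeat 1 element of nuclear receptors. For Gpam and Agpat2 the windows begin at the annotated 5′ end of the gene, and for Cd36 at a start inside the annotated gene. They are chr19:55127239-55127488 (- strand) for Gpam, chr2:26604418-26604667 (-) for Agpat2 and chr5:17835897-17836146 (-) for Cd36.
Gpam: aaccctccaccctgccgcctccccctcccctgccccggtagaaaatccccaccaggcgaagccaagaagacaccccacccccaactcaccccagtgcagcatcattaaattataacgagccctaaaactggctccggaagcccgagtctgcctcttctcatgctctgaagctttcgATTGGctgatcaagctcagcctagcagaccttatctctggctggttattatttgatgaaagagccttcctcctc
Agpat2: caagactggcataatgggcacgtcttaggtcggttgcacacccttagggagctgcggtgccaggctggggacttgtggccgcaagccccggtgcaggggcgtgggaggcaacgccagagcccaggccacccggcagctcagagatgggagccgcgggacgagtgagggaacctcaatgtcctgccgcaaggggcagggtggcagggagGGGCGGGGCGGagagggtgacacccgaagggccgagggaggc
Cd36: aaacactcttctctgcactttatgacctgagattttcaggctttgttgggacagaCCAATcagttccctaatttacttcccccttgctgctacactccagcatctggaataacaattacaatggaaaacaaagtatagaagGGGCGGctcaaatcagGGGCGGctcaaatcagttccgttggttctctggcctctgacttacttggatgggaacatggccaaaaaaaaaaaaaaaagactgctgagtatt
The Gpam window holds CCAAT on the reverse strand at -74 to -70, the Agpat2 window 2 copies of GGGCGG that share a base at -42 to -37 and -37 to -32, and the Cd36 window CCAAT at -195 to -191 and GGGCGG at -109 to -104 and -93 to -88. Among 32851 RefSeq windows of this length, 33.8% hold CCAAT and 32.7% GGGCGG, so these matches are common. None of the 3 windows holds TATAAA (12.4% of windows do), the direct repeat 1 element (0.338%) or TCACNCCAC (1.05%). The printed windows of Gpam and Agpat2 share none of the motifs searched, while a second RefSeq window of Gpam, for a start inside the annotated gene, holds GGGCGG on the reverse strand at -16 to -11.

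Of the other acyl transfer genes in control pads, Dgat1 differed by -0.57 ± 0.23 (edgeR adjusted p = 0.0886), Lpin1 by -0.44 ± 0.32 (adjusted p = 0.386) and Dgat2 by -0.20 ± 0.38 (adjusted p = 0.768). Dgat2 ranged from 719.6 to 1424 CPM in lean and 527 to 1391 CPM in obese control pads. The obese values of Dgat2 spread over nearly the whole lean range, whereas for Gpam no lean value fell within the obese range.

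Gpihbp1 had 45.3, 47.8, 61.7, 54.2 and 63.6 CPM in lean and 135, 83.2, 114, 80.8, 124 and 113 CPM in obese control pads. No obese library reached down to the lean ones, as in 7.44% of all genes tested that were higher, and the log2 difference was 0.99 ± 0.30 (edgeR adjusted p = 0.0253), with the call lost without lean mouse 2 (0.95 ± 0.32, adjusted p = 0.0597). The endothelial marker Pecam1 differed by 1.03 ± 0.22 (adjusted p = 0.00322), 1 of 2 called higher among 10 endothelial markers. Whether endothelial RNA had a part in the Gpihbp1 level was not tested.

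Cd36 was also without overlap, at 2336 to 3401 CPM in lean and 3628 to 6387 CPM in obese control pads, but its difference of 0.82 ± 0.32 missed the threshold (edgeR adjusted p = 0.0863). It was called when the control libraries were fitted alone (adjusted p = 0.00905) and without obese mice 0 and 4 (adjusted p = 0.0388). Lpl (0.59 ± 0.32, adjusted p = 0.225) and Fabp4 (0.62 ± 0.32, adjusted p = 0.196) overlapped between diets and were called only in the fit to control libraries alone. That fit called 7 of the 10 (also Dgat1), beside 3270 of all 13823 genes tested. The difference of Slc27a1 was 0.00 ± 0.26 and changed sign with the scaling.

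Relative to the mean of the adipocyte markers of the same library, Gpam lay at -0.85 ± 0.33 log2 units in lean control and -2.38 ± 0.20 in obese control pads, and Lpl at 2.35 ± 0.09 and 3.02 ± 0.25 (SD, n = 5 and 6). Some markers of that list themselves differed with diet, since 2 of the 10 were called higher and 3 lower in obese control pads, with differences from -2.85 to 2.61. Against Adipoq alone Gpam lay at -1.80 ± 0.37 and -3.83 ± 0.19, and Lpl at 1.41 ± 0.14 and 1.56 ± 0.18. The log2 ratio of Lpl to Gpam within a library, which needs no marker, was 3.05 to 3.65 in lean and 5.11 to 5.94 in obese control pads. In obese tumor-associated pads it was 3.82 to 5.03, still above every lean library.

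**Figure D4:**
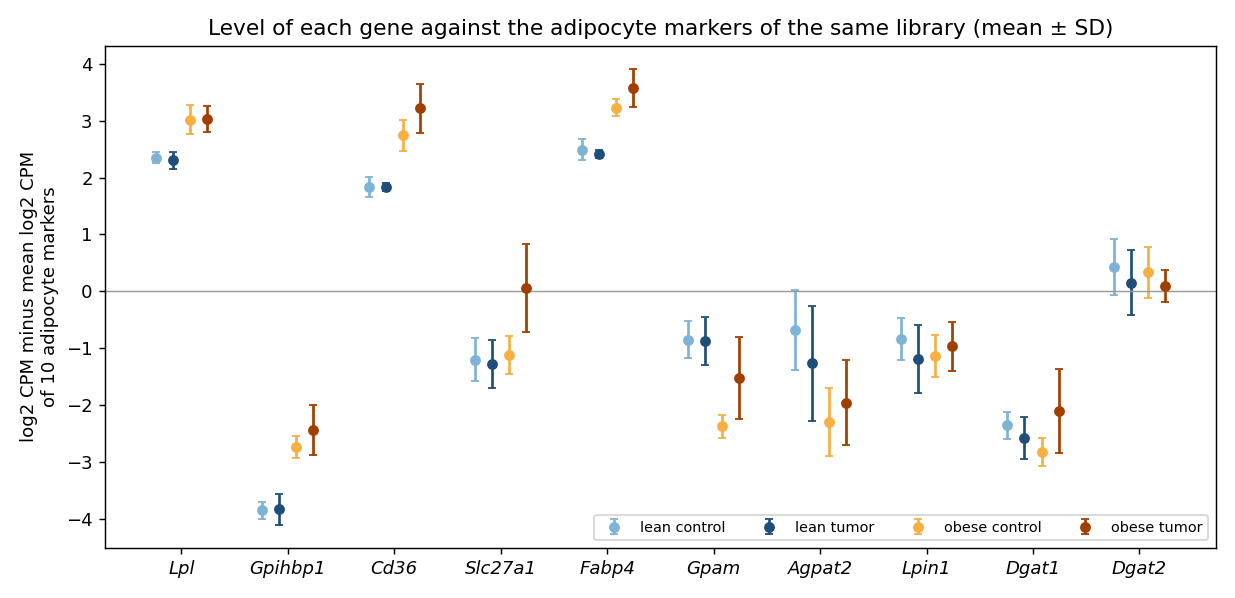
Log2 CPM of each gene minus the mean log2 CPM of 10 adipocyte markers in the same library, as mean and SD over 5 lean or 6 obese libraries per group. Gpam goes from -0.85 in lean to -2.38 in obese control pads and Agpat2 moves the same way, while Lpl, Gpihbp1, Cd36 and Fabp4 are higher in obese pads and Slc27a1 lies highest in obese tumor-associated pads, at 0.06.

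The last comparison of levels was between diets in tumor-associated pads, where tumor size differed along with diet. All 5 acyl transfer genes were called lower in obese mice and none of the 5 uptake genes was called, where 47.0% of all genes tested were called and 22.4% were called lower. The median log2 difference was -1.14 over the acyl transfer genes and -0.60 over the 10, beside 0.03 over all genes tested. No test set the acyl transfer genes against the uptake genes, and this comparison uses the tumor-associated libraries already described. Of the 10 adipocyte markers 5 were called lower and 1 higher in obese tumor-associated pads, with a median log2 difference of -0.78.

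Relative to the mean of the adipocyte markers of the same library, Gpam lay at -0.88 ± 0.42 log2 units in lean and -1.53 ± 0.72 in obese tumor-associated pads, and Agpat2 at -1.27 ± 1.01 and -1.96 ± 0.75 (SD, n = 5 and 6). Of the other acyl transfer genes, Lpin1 lay at -1.19 ± 0.61 and -0.96 ± 0.43, Dgat1 at -2.58 ± 0.36 and -2.11 ± 0.74, and Dgat2 at 0.15 ± 0.57 and 0.09 ± 0.28, so that on this scale the means of Lpin1 and Dgat1 were higher in obese mice and those of Dgat2 lay close together. The ranges of the diets overlapped in all 5 genes. The part of the adipocyte signal in the lower levels was not tested.

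Gpam had 276, 302, 381, 307 and 251 CPM in lean and 56.0, 103, 71.5, 96.7, 43.4 and 102 CPM in obese tumor-associated pads. The groups lay far apart, and the log2 difference was -1.94 ± 0.20 (SE; edgeR adjusted p = 2.39e-06). The groups did not overlap for this gene alone among the called members, as in 13.4% of all genes tested that were lower. Agpat2 differed by -2.12 ± 0.43 (adjusted p = 0.000593), and its ranges met, from 105 to 570.2 CPM in lean and from 31.8 to 108 CPM in obese mice.

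Dgat1 differed by -0.83 ± 0.23 (edgeR adjusted p = 0.00566), Lpin1 by -0.98 ± 0.33 (adjusted p = 0.0178) and Dgat2 by -1.14 ± 0.38 (adjusted p = 0.0182). The calls of Lpin1 and Dgat2 were lost without obese mice 0 and 4 (-0.62 ± 0.26 and -0.71 ± 0.28, adjusted p = 0.0708 and 0.0556) and in the fit to tumor-associated libraries alone (adjusted p = 0.0692 and 0.0550). Those of Gpam, Agpat2 and Dgat1 held in both.

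The uptake genes had log2 differences of -0.37 ± 0.32 for Lpl, 0.23 ± 0.30 for Gpihbp1, 0.28 ± 0.32 for Cd36, -0.01 ± 0.26 for Slc27a1 and 0.06 ± 0.32 for Fabp4 (edgeR adjusted p = 0.353 to 0.988). Without obese mice 0 and 4, Gpihbp1 (0.59 ± 0.21, adjusted p = 0.0370) and Cd36 (0.65 ± 0.20, adjusted p = 0.0197) were called higher, and without mice 1 and 3 their differences were -0.21 ± 0.26 and -0.05 ± 0.34. Which obese mice were included therefore set the direction for these genes.

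Whether the change beside the tumor itself differed between diets was tested with the interaction of diet and pad. None of the 10 members was called by edgeR, beside 4.92% of all genes tested, which is 711 genes and ran from 1 to 3568 with 1 library left out. At an unadjusted p under 0.05 there was 1, Lpl (-0.96 ± 0.45, adjusted p = 0.148), beside 32.9% of all genes. DESeq2 also called none. All 10 estimates were negative, from -0.96 to -0.01 (median -0.54, beside -0.04 over all genes tested). Without obese mice 0 and 4, 6 of them turned positive (Cd36, Slc27a1, Gpam, Agpat2, Lpin1 and Dgat1). Without mice 1 and 3, 4 were called more negative (Lpl, Gpihbp1, Lpin1 and Dgat2, edgeR adjusted p = 0.0113 to 0.0377). Calls were common in that fit, at 4951 of all 14399 genes tested.

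The changes of the pair of diacylglycerol acyltransferases can also be given as a ratio within each library. The log2 ratio of Dgat2 to Dgat1 was 3.16 ± 0.25 in the control pads and 2.20 ± 0.67 in the tumor-associated pads of obese mice (SD, n = 6), with ranges of 2.85 to 3.55 and 1.29 to 3.00 that overlapped. Per mouse it changed by -1.73, -0.37, -0.41, -0.55, -1.78 and -0.93 in obese mice 0, 1, 2, 3, 4 and 8. The ratio was thus lower beside the tumor in 6 of 6 obese mice, with a mean change of -0.96 ± 0.64, or -0.57 ± 0.26 (SD, n = 4) without mice 0 and 4, which had the greatest changes. In lean mice it was 2.79 ± 0.58 in control and 2.74 ± 0.39 in tumor-associated pads. These ratios are within libraries and were not tested.

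Other genes of the pathway, 57 in number from a list fixed by function, gave 52 that passed the filter. In lean mice none of the 52 was called by edgeR between pads, beside 4.18% of all genes tested. At an unadjusted p under 0.05 there were 10, beside 16.1% of all genes. In obese mice 10 were higher and 17 lower in the tumor-associated pad, near the shares of all genes tested (26.8% higher and 27.7% lower). Of the 5 glycerol supply genes tested 4 were lower, among them Pck1, the enzyme of glyceroneogenesis (-1.57 ± 0.51, adjusted p = 0.0138, lost without mice 0 and 4). The largest falls on the whole list were Mogat2 (-1.76 ± 0.43), a monoacylglycerol acyltransferase, and Vldlr (-1.67 ± 0.30), the receptor for very low density lipoprotein. Mogat2 had only 22 to 58 counts per obese control and 2 to 25 per obese tumor-associated library. The largest rises were Acsl6 (2.88 ± 0.53), an acyl-CoA synthetase with 5 to 37 counts per obese control library, Lipg (1.94 ± 0.37), endothelial lipase, and Sdc1 (1.28 ± 0.26), the heparan sulfate proteoglycan syndecan. Each of these was highest in mouse 4 among the obese tumor-associated pads.

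Between diets in control pads 6 of the 52 were higher and 4 lower in obese mice, again near the shares of all genes tested (9.54% and 7.53%). Gm6484, the older symbol of Angptl8, had the largest difference of all, -3.47 ± 0.55 (edgeR adjusted p = 0.000265, with 34 to 406 counts per lean and 10 to 31 per obese control library), and encodes a regulator of lipoprotein lipase that insulin induces. It lies inside Dock6 on the other strand, with no overlap between the exons of the 2 genes. Mogat1 (-1.70 ± 0.43) and the acyl-CoA synthetase Acsl3 (-0.96 ± 0.21) were lower, and Acsl6 (2.18 ± 0.70, from 1 to 3 counts per lean control library), the caveola gene Ptrf (1.21 ± 0.24) and Angptl4 (1.05 ± 0.31), an inhibitor of lipoprotein lipase, were higher. Without lean mouse 2 the calls of Acsl6 (edgeR adjusted p = 0.0779) and Angptl4 (adjusted p = 0.0709) were lost, as they were in 7 and 3 of the 22 fits that left out 1 library. In tumor-associated pads 14 were higher and 10 lower, beside 24.7% and 22.4% of all genes tested. Acsl6 (4.21 ± 0.63, from 3 to 6 counts per lean library), Lipg (2.08 ± 0.40) and Apoc2 (1.91 ± 0.54) led the higher ones. Apoc2, the cofactor of lipoprotein lipase, had only 4 to 11 counts per lean and 8 to 64 per obese library. Gm6484 (-3.22 ± 0.57), Mogat1 (-2.09 ± 0.45) and Gpd1 (-1.22 ± 0.40) led the lower ones. Gm6484 and Mogat1 had 3 to 21 and 1 to 29 counts per obese library. The call of Gpd1, the glycerol phosphate dehydrogenase, was lost without obese mice 0 and 4 (edgeR adjusted p = 0.0616).

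The genes outside the set with the most similar pattern were sought by the root mean square difference of log2 CPM, each gene centred on its mean over the 22 libraries, among 12087 genes with a mean of at least 5 CPM. The nearest was Mgll, the monoglyceride lipase, for both Lpl (0.128) and Fabp4 (0.164), 5430416O09Rik for Gpihbp1 (0.118), Plxna2 for Cd36 (0.208) and Apmap for Slc27a1 (0.233). Among the acyl transfer genes it was Gbe1 for Gpam (0.315), Slc25a1, the mitochondrial citrate carrier, for Agpat2 (0.180), Gpt for Lpin1 (0.310), Crat for Dgat1 (0.192) and Igfals for Dgat2 (0.241). Within the set, Cd36 and Fabp4 were nearest to each other (0.155), closer than either was to any gene outside it. Gpam and Agpat2 were each nearest to the other among the members, but at a distance of 0.637, the largest of these nearest-member distances.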

How the data were processed

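The deposited table holds raw counts per gene, which the authors made by aligning reads to mm10 with STAR (version 2.4.0f) and counting with HTSeq. RNA was depleted of ribosomal RNA. Between 38.5% and 48.8% of the counted lines per library were reads assigned to no gene, and the 5 summary lines were left out of totals. Groups came from the labels, and the left and right pads of a mouse share its number. Deviations from the group means of paired pads correlated at a median of 0.508 in lean (5 of 5 mice above 0.1) and 0.168 in obese mice (4 of 6). The reported fit, edgeR 4.0.16 (R 4.3.3) with TMM, filterByExpr and quasi-likelihood F tests, had 4 group means and all 22 libraries, and p-values were adjusted by Benjamini-Hochberg over 14458 genes with a threshold of 0.05. Level per kb used merged exons of protein-coding transcripts in the basic set of GENCODE M21. Log2 CPM used a prior count of 2. Alternatives were DESeq2 1.42.0, other scalings and filters, compared groups alone, a mouse block and each library left out. The scripts were tested on simulated data. Members and gene lists were chosen with earlier results of these data known. Named genes are the 10 members, the nearest gene to each, Adipoq, Pecam1 and Emr1 (the older symbol of Adgre1) for the marker lists, and up to 3 rises and 3 falls of the other pathway genes per comparison. Egfl7 was added because it overlaps Agpat2, and Agpat9 and Agpat6 because they encode enzymes of the same step as Gpam. The 8 marker lists (adipocyte, endothelial, macrophage, fibroblast, luminal epithelial, skeletal muscle, lymphocyte and brown fat) were fixed with the design.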

Additional observations from a re-analysis of the deposited data

Results flagged for a closer look

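One group of 40 examined (10 genes in 4 groups) had a library far from the others: Lpin1 in the control pad of obese mouse 4, at 502 CPM (8.97 on the log2 CPM scale), where the other 5 obese control pads had 282 to 319.6 CPM. Chance marks about 1 group in 20 by this measure, and the same pad had the highest obese control levels of Agpat2, Dgat1 and Dgat2.

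By the interaction test the change beside the tumor was called different between diets for 3 of the 52 other pathway genes tested. That share is near the 4.92% of all genes tested. Lipg, endothelial lipase, had an interaction of 2.01 on the log2 scale (edgeR adjusted p = 0.0463), with 3.78 ± 0.996 CPM (SD) in control and 3.59 ± 1.62 CPM in tumor-associated pads of lean mice, and 3.96 ± 1.42 against 15.3 ± 9.64 CPM in obese mice. With the mouse as a block it was 1.89 (adjusted p = 0.0649) and no longer passed. Gyk, glycerol kinase, had an interaction of 0.89 (adjusted p = 0.0396), at 20.6 ± 3.16, 18.3 ± 3.52, 24.6 ± 4.36 and 40.7 ± 6.69 CPM in the same order. Gpd1l, related to glycerol phosphate dehydrogenase, had an interaction of -0.39 (adjusted p = 0.0474), at 63.3 ± 3.30, 57.6 ± 3.34, 57.7 ± 3.98 and 40.1 ± 4.18 CPM. The calls of Lipg, Gyk and Gpd1l were lost in 16, 13 and 17 of the 22 fits that left out 1 library, and each without obese mice 0 and 4.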

How the results depend on the processing

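Of the counts of members called, those for obese tumor-associated against control pads (9) stayed within 1.5 times under every alternative, and the others moved as follows. In lean mice the count of 0 became 1 with DESeq2, 6 with the lean libraries alone and 3 without obese mice 0 and 4. In these fits 918 of 13605, 1437 of 13750 and 1102 of 14521 genes were called, in that order. With single libraries left out the count was 0 to 1 (1 without the tumor-associated pad of lean mouse 6 or of obese mouse 4). Between diets in control pads the count of 3 became 7 with those groups alone and 5 without obese mice 0 and 4. In these fits 3270 of 13823 and 3349 of 14521 genes were called. Between diets in tumor-associated pads the 5 became 3 with those groups alone, where 5337 of 13984 genes were called. For the interaction the 0 became 4 without obese mice 1 and 3, where 4951 of all 14399 genes tested were called. With single libraries left out the count was 0 to 1. It was 1 without the tumor-associated pad of obese mouse 1, where 3568 of 14423 genes were called. The replicate block (mouse) left 0, 9 and 0 members called in lean mice, obese mice and the interaction, and changed no call of a member. Sets of libraries left out were chosen after seeing the data.

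The following log2 values turned sign, none of them past the threshold as reported. For Slc27a1 the diet difference in control pads became -0.00934 with DESeq2, -0.00928 with size factors, -0.0682 with upper-quartile scaling, -0.0227 with at least 10 counts in every library, -0.00161 with the groups alone and -0.170 without obese mice 0 and 4. That in tumor-associated pads became 0.000354 without a filter and 0.216 without mice 0 and 4, and the interaction 0.00526 with DESeq2, 0.00525 with size factors, 0.0359 with the replicate block and 0.386 without mice 0 and 4. Without mice 0 and 4 the diet difference in tumor-associated pads became 0.0306 for Lpl and 0.182 for Pecam1, and the interaction 0.0364 for Cd36, 0.00394 for Gpam, 0.137 for Agpat2, 0.0220 for Lpin1 and 0.101 for Dgat1. Without mice 1 and 3 the diet difference in tumor-associated pads became -0.209 for Gpihbp1, -0.0461 for Cd36 and -0.278 for Fabp4, which was -0.0139 with upper-quartile scaling, and the interaction of Emr1 became -0.0206.

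With single libraries left out, values that turned sign ranged from -0.14 to 0.10 for Slc27a1 between control pads, -0.12 to 0.17 between tumor-associated pads and -0.13 to 0.17 for its interaction. The interaction of Agpat2 ranged from -0.72 to 0.10. Differences between tumor-associated pads ranged from -0.15 to 0.25 for Fabp4, -0.0925 to 0.398 for Gpihbp1 and -0.291 to 0.0414 for Pecam1. The call of Gpihbp1 between control pads was lost without the control pad of lean mouse 0, 2 or 6 or obese mouse 0, and that of Dgat2 between tumor-associated pads without that of lean mouse 6. The cause was not tested. Over all genes, the interaction gave 711 calls in the reported fit, 2365 with DESeq2, 18 without a filter, 5 without obese mice 0 and 4, 4951 without 1 and 3, and 4 without lean mouse 2. Lean tumor-associated against control pads gave 605 in the reported fit, 918 with DESeq2, 1437 with the groups alone, 1102 without mice 0 and 4, and 119 without lean mouse 2. Obese pads gave 7882, and 4680 without mice 0 and 4. Depth limits Gpihbp1 most among members, at 125 counts in its lowest library.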

Other observations

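Marker lists not described above also moved with diet or pad, and their part in the levels of the 10 genes was not tested. Luminal epithelial markers summed to 979 to 1745 CPM in lean control, 966 to 2082 in lean tumor-associated, 412 to 1054 in obese control and 197 to 541 in obese tumor-associated pads. By edgeR none of the 10 was called between pads in lean mice, 9 were lower in obese tumor-associated pads, 3 were lower in obese than lean control pads and 10 in tumor-associated pads. Fibroblast markers summed to 6263 to 9152, 12798 to 19166, 5221 to 11058 and 5047 to 18040.0 CPM in the same order of groups, with 3 of 10 called higher between pads in lean mice, and 3 higher and 2 lower in obese mice. Of 8 brown fat markers 6 were tested, of which none was called between pads in lean mice (5 at an unadjusted p under 0.05, beside 16.1% of all genes). In obese tumor-associated pads 1 was lower, and 4 were lower in obese than lean control pads, while Zic1 was at 0 in both lean groups.

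Skeletal muscle markers summed to at most 26.4 CPM in lean libraries. Of 4 tested, 4 were called higher in obese than lean control pads and 2 lower in obese tumor-associated than control pads. Of 10 lymphocyte markers 2 were called lower in obese tumor-associated than control pads. None was called between diets in control pads, with 8 at an unadjusted p under 0.05, beside 4561 of all 14458 genes tested. The macrophage marker Emr1 was higher in tumor-associated pads by 1.28 ± 0.25 in lean (SE; edgeR adjusted p = 0.00472) and 1.57 ± 0.22 in obese mice (adjusted p = 2.74e-05), without overlap between pads in either diet.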
